A study of Homo sapiens with 4 samples.

Results

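The 8 genes described here are BCL2L1, PIM1, CISH, SOCS2, SOCS3, MCL1, CCND2 and ID1, a set of target genes of the transcription factor STAT5 downstream of the fusion kinase BCR-ABL1. Each gene was represented by 1 start site given for hg19 and by the 20 tiles of 1 kb whose centres lay within 10 kb of it. This gave 160 tiles of the 2598309 covered tiles in the genome, and all 160 held reads. The genes were chosen by name as STAT5 targets, with earlier results of these data known.

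The series mapped DPF2 and histone H3 crotonylated at lysine 14 (H3K14cr) by ChIP-seq in K562, an established human line from a chronic myeloid leukaemia that carries BCR-ABL1. All 4 libraries came from wild-type, formaldehyde-fixed cells of this 1 line: 2 were made with a DPF2 antibody (Abcam 134942) and 2 with an H3K14cr antibody (PTM 535). Read totals were 7787444 and 13317496 with the DPF2 antibody, and 10880366 and 17369133 with the other. No control library, kinase inhibitor, STAT5 map or expression measurement was analysed here.

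BCR-ABL1 is a constantly active tyrosine kinase that phosphorylates STAT5 without a cytokine, and STAT5 then enters the nucleus and binds palindromic sites near its targets. Those targets keep blood cells alive (BCL2L1, MCL1, PIM1), drive them into the cell cycle (CCND2) and switch cytokine signalling off again (CISH, SOCS2, SOCS3). DPF2 belongs to the BAF complexes, which remodel chromatin, and its tandem PHD fingers read acylated lysine 14 of histone H3, crotonylation included.

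Promoter sequences are shown for the genes on which the results below turn most: CISH for its STAT5 motifs, and PIM1 and ID1 as the genes with the highest H3K14cr levels at the start. They come from RefSeq on GRCh38.p14, run 5′ to 3′ from 250 bases before the start to 50 after it, and were not read from the libraries. BCL2L1 and SOCS3 also had entries, while MCL1, SOCS2 and CCND2 were not matched. CISH lies on the minus strand at chr3:50611725-50612024, and capitals mark the STAT5 motif TTCNNNGAA. PIM1 lies on the plus strand at chr6:37169902-37170201 and ID1 on the plus strand at chr20:31605039-31605338, and capitals in both mark CG dinucleotides.

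CISH: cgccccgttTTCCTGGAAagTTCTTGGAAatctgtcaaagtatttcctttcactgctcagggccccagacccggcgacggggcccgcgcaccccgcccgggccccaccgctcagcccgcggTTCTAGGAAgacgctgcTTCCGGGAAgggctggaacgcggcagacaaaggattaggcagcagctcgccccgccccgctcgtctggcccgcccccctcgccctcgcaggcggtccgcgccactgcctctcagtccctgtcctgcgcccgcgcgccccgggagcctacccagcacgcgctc

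PIM1: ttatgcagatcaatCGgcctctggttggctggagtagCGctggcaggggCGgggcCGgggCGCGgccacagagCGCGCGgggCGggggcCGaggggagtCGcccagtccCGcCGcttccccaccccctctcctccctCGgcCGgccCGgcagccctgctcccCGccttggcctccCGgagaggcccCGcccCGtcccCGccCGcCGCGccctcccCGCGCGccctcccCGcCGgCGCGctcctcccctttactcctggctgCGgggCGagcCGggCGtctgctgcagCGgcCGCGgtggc

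ID1: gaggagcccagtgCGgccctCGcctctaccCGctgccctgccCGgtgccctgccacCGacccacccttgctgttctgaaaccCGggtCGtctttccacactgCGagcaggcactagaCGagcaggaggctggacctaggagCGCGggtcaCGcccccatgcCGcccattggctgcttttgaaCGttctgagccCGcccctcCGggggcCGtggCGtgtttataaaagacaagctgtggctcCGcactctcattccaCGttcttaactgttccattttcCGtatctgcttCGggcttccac

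The CISH promoter held 4 copies of the motif, whose first bases lie at positions -241, -230, -129 and -112 from the start. Of 35116 promoters in the table, 7.66% held at least 1 copy, counting both strands, and 7 promoters (0.0199%) held 4 or more. No TTCNNNGAA occurred in the entries of the other 4 matched genes within this window. The PIM1 promoter held 39 CG dinucleotides, against 33 for CISH, 34 and 17 for the SOCS3 starts, 22 for ID1, 20 and 16 for the BCL2L1 starts and a median of 14 over all promoters. CISH, with 33, was next to lowest in H3K14cr within 1 kb of the start. The E-box CANNTG, the site of basic helix-loop-helix factors that ID1 opposes, occurred in SOCS3 alone among the 5 matched genes and in 68.7% of all promoters. The GATA motif GATAA was in no entry of the 5 and in 22.7% of all promoters, both motifs again counted on both strands and overlaps of different motifs allowed.

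The first question was whether reads of DPF2 and H3K14cr were raised at these genes. They were: every one of the 8 start tiles stood at 2 or more times its chromosome mean in both libraries of each antibody. Without a control library, raised reads alone do not show presence. The start tiles ranked between the percentiles 98.4 (CCND2, DPF2) and 99.9 (ID1, H3K14cr) of all covered tiles. Their median was 3.10 CPM (reads per 1000000 reads of the library) for DPF2 and 3.75 CPM for H3K14cr, against genome medians of 0.284 and 0.248 CPM. These ranks describe read level, and the part of copy number in them was not tested. In this line the highest 5 Mb windows of the genome lay at chr22:20000001-25000000 and chr9:130000001-135000000, at 5.74 and 4.70 times the median window, and none of the 8 genes is there. The surrounding 1 Mb stood above the genome mean at 7 of the genes, up to 2.99-fold for DPF2 and 3.37-fold for H3K14cr at PIM1. CCND2 was the exception, at 0.884 and 0.879.

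Signal spread well beyond the start tiles. Of the 160 tiles, 84 (52.5%) were at 2 or more times the chromosome mean in both DPF2 libraries, against 6.41% of all covered tiles, and 95 (59.4%) in both H3K14cr libraries, against 7.57%. Both antibodies passed in 75 tiles (4.12% of all covered tiles), DPF2 alone in 9 (2.28%) and H3K14cr alone in 20 (3.45%). Measured against the mean of the surrounding 1 Mb instead, the counts were 57 for DPF2 (background 4.58%) and 55 for H3K14cr (background 5.04%), and all 8 start tiles still passed for both. The antibodies were nearly level under that measure, so the wider reach of H3K14cr in the first counts depends on the background used.

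Sharp local enrichment was rarer. A tile counted as enriched when each library of the antibody had 3 or more times the reads of its local background and a Benjamini-Hochberg adjusted p (one-sided Poisson) no higher than 0.001. The local background was the mean of the 20 kb around the tile, or the chromosome mean where that was larger. For DPF2 2 member tiles were enriched, 1 at SOCS2 and 1 at MCL1, where 0.221% of all covered tiles were. For H3K14cr 5 member tiles were enriched, 2 at SOCS2 and 1 each at PIM1, MCL1 and ID1, where 0.425% of all covered tiles were. BCL2L1, CISH, SOCS3 and CCND2 had none for either antibody. The 20 kb window was itself raised at each gene, from 1.96 (MCL1) to 5.02 (CISH) times the chromosome mean for DPF2 and from 2.17 (MCL1) to 6.64 (PIM1) times for H3K14cr. Against the chromosome mean alone the counts were 44, where 1.11% of all covered tiles were called, and 63, where 2.12% were.

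**Figure D1:**
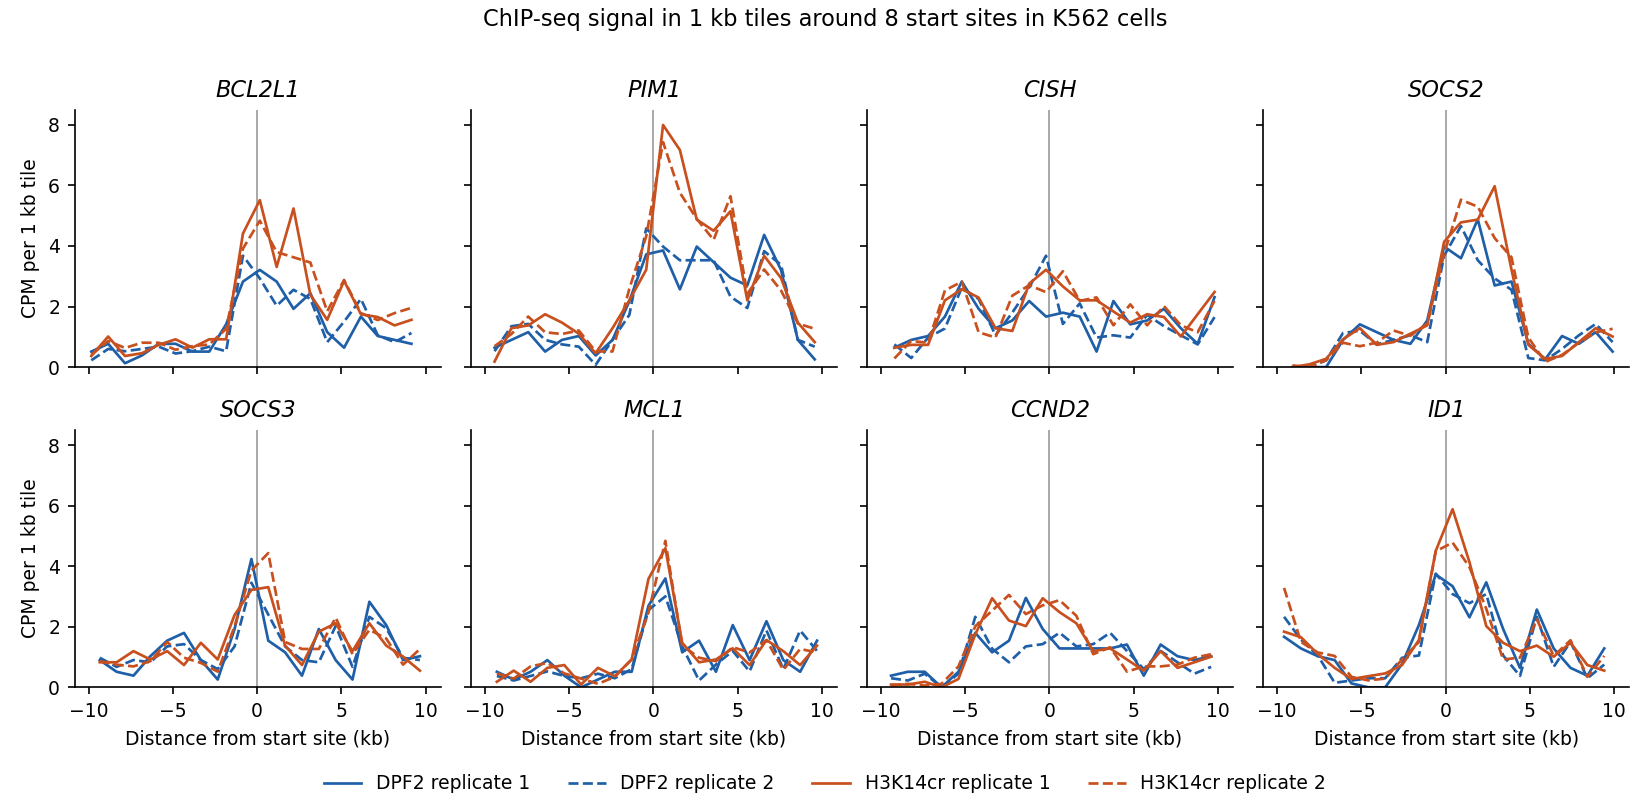
CPM per 1 kb tile (vertical axis) against distance from the start site in kb, positive in the direction of transcription, for each of the 8 genes and each of the 4 libraries as separate lines. H3K14cr rises highest just downstream of the PIM1 start, CISH has a broad flat profile, CCND2 a broad low one, and MCL1 and SOCS3 have narrow ones.

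The libraries of an antibody traced the same profiles. Over the 160 tiles a chi-square test of the reads, divided by its degrees of freedom, gave 1.02 between the DPF2 libraries and 0.885 between the H3K14cr libraries, and over all covered tiles it was 0.981 and 0.9899. Differences within an antibody were thus no larger than sampling noise, and each pair was treated as a single sample, which leaves n = 1 per antibody. Between antibodies the value over the member tiles lay between 1.34 and 1.61. The labels do not say whether separate cultures were used, and every p between antibodies measures technical spread. The intervals given are exact at 95% confidence and cover counting error only, since PCR copies could not be told from independent molecules.

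The levels and DPF2 to H3K14cr ratios given next for each gene are scaled by library totals. The order of the antibodies, their closeness and whether a ratio interval includes 1 depend on that scaling. Among the survival genes, BCL2L1, which encodes the anti-apoptotic protein BCL-xL, had broad signal reaching far into the gene. Within 1 kb of its start (chr20:30310656) the DPF2 libraries had 7.06 and 5.86 CPM and the H3K14cr libraries 9.47 and 9.10 CPM. Both H3K14cr values were above both DPF2 values. The run of tiles at 2 or more times the chromosome mean was 12 tiles long for H3K14cr and 6 tiles for DPF2, ending 4156 bp downstream. The DPF2 run was broken by the tile centred 5156 bp downstream, at 1.57 times in replicate 1 and 3.69 times in replicate 2. Tiles beyond it passed again, and of the 20 tiles 9 passed for DPF2 and 13 for H3K14cr. The H3K14cr run reached the last tile of the window, centred 9156 bp downstream, so its end was not seen. The 5 kb downstream held 1.81 times the H3K14cr reads of the 5 kb upstream (interval 1.55 to 2.11) and 1.32 times the DPF2 reads (1.06 to 1.64). Over its 20 kb the DPF2 to H3K14cr ratio, each scaled by library totals, was 0.677 (0.610 to 0.751), the lowest of the 8 genes. RefSeq lists 2 BCL2L1 starts in the promoter table, 1095 bp apart, so the reads near this start can belong to either.

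MCL1, a short-lived anti-apoptotic protein of the BCL2 family, had the narrowest signal of the set. Its DPF2 libraries had 5.39 and 5.26 CPM within 1 kb of the start (chr1:150552214), and its H3K14cr libraries 7.90 and 7.14 CPM. The libraries of each antibody lay close together and the antibodies did not overlap. For both antibodies the run of raised tiles was 3 tiles, and 33.7% of the H3K14cr reads of the window (30.0 to 37.6%) and 27.3% of the DPF2 reads (23.1 to 31.9%) lay within 1 kb. The tile chr1:150551001-150552000, whose centre is 714 bp downstream, was enriched for both antibodies. Its fold over the surrounding 20 kb was 3.92 and 3.56 with DPF2 and 4.95 and 5.49 with H3K14cr, the highest H3K14cr folds among the enriched member tiles. The ratio of DPF2 to H3K14cr was 0.714 (0.562 to 0.902) within 1 kb of the start and 0.966 (0.829 to 1.12) in the rest of the window.

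PIM1, a serine/threonine kinase that promotes survival, had the highest level of the 8 genes for both antibodies. Within 1 kb of the start (chr6:37137922) the DPF2 libraries had 7.58 and 8.64 CPM and the H3K14cr libraries 10.9 and 11.5 CPM. Again the antibodies did not overlap. H3K14cr was lopsided: the 5 kb downstream held 3.49 times the reads of the 5 kb upstream (3.01 to 4.06), with 3.88 and 3.27 in the separate libraries. DPF2 leaned the same way by 2.21 (1.83 to 2.67). H3K14cr stayed between 4.32 and 7.65 CPM in the 5 tiles centred 578 to 4578 bp downstream and was 2.34 CPM in the next. The gene is 5277 bp long in the GRCh38.p14 table. DPF2 had a further rise outside that stretch: in the tile centred 6578 bp downstream the DPF2 libraries had 4.37 and 3.83 CPM, and the H3K14cr libraries 3.68 and 3.22 CPM. There both DPF2 values stood above both H3K14cr values, the reverse of the order at the start. With library totals, though, the ratio of 1.19 (0.875 to 1.60) had an interval that included 1.

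The feedback genes came next in the pathway. CISH, a suppressor of cytokine signalling and a classical STAT5 target, had a flat, wide profile. Within 1 kb of the start (chr3:50649297) the DPF2 libraries had 3.98 and 5.63 CPM and the H3K14cr libraries 5.97 and 5.87 CPM. The DPF2 libraries stood further apart here than at any other gene, and the higher of them came close to H3K14cr. In the start tile itself, chr3:50649001-50650000, they had 1.67 and 3.68 CPM, and the H3K14cr libraries 3.22 and 2.48 CPM lay between them. H3K14cr was at 2 or more times the chromosome mean in 19 adjoining tiles and DPF2 in 10. Counted with breaks in the run, 18 of the 20 tiles passed for DPF2 and 19 for H3K14cr, so the widths were nearly equal. The H3K14cr run reached the downstream edge of the window, so its end was not seen. The antibodies leaned in opposite directions: DPF2 had 0.675 times as many reads in the 5 kb downstream as upstream (0.547 to 0.832), and H3K14cr 1.23 times (1.04 to 1.45). All libraries followed their antibody, with 0.833 and 0.603 for DPF2 and 1.15 and 1.28 for H3K14cr. CISH shares this region with MAPKAPK3, a kinase gene whose nearest start lies 97 bp away in the GRCh38.p14 table, so the reads cannot be told apart by gene.

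SOCS2, which restrains growth hormone and cytokine receptors, had the most similar levels of the antibodies near the start with library totals. Its DPF2 libraries had 6.55 and 6.91 CPM within 1 kb of the start (chr12:93963590), and its H3K14cr libraries 7.72 and 7.54 CPM. The order of the antibodies held, but the ratio of 0.890 had an interval (0.715 to 1.11) that included 1. The signal formed a block downstream of the start. H3K14cr read 3.89, 5.24, 5.13, 4.92 and 3.47 CPM in the 5 tiles centred from 90 bp upstream to 3910 bp downstream, and DPF2 read 3.79, 4.26, 4.03, 2.84 and 2.65 CPM. The start tile, chr12:93963001-93964000, was enriched for DPF2, at 3.16-fold and 3.04-fold, and the next 2 tiles were enriched for H3K14cr. These calls were borderline: the H3K14cr folds in the start tile were 2.76 and 2.50, and the DPF2 folds in the next tile were 2.64 and 3.94. The 5 kb downstream held 3.27 times the upstream H3K14cr reads (2.77 to 3.89) and 2.27 times the DPF2 reads (1.86 to 2.79).

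SOCS3, which shuts down JAK kinases bound to cytokine receptors, had a narrow signal at the start and a separate rise further downstream. Within 1 kb of the start (chr17:76356158) the DPF2 libraries had 6.04 and 6.16 CPM and the H3K14cr libraries 6.62 and 8.29 CPM. The H3K14cr libraries were spread more widely here than at the other genes, yet both lay above DPF2. Raised tiles formed a run of 4 for each antibody. In the tile centred 6658 bp downstream the DPF2 libraries had 2.83 and 2.33 CPM and the H3K14cr libraries 2.11 and 1.90 CPM, with DPF2 on top at a ratio of 1.27 (0.853 to 1.88), an interval that again included 1. H3K14cr had more reads in the 5 kb downstream than upstream (1.35, interval 1.13 to 1.62), while the DPF2 value of 0.994 (0.795 to 1.24) included 1. Over its 20 kb the ratio of the antibodies was 0.888 (0.797 to 0.989), the highest of the 8.

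CCND2, which encodes cyclin D2 and carries cells from G1 into S phase, had the lowest levels of the set close to the start, though over the whole window MCL1 was lower (0.971 against 1.04 CPM per kb for DPF2, and 1.10 against 1.27 for H3K14cr). Its DPF2 libraries had 3.47 and 3.30 CPM within 1 kb of the start (chr12:4382902) and its H3K14cr libraries 5.33 and 5.58 CPM. The antibodies were well apart, with a ratio of 0.613 (0.456 to 0.817). It was the one gene of the 8 with more H3K14cr upstream than downstream, at 0.710 (0.599 to 0.839). H3K14cr reached 2.69 CPM in the tile centred at -3402 bp, upstream of the start, where DPF2 had 1.23 CPM. From 5 to 10 kb upstream both antibodies fell to very low levels, and the order turned: 34 DPF2 reads against 21 H3K14cr reads gave a ratio of 2.17 (1.22 to 3.93). Each of the 4 pairings of a DPF2 with an H3K14cr library gave a ratio above 1 there, from 1.65 to 3.49, on these few reads.

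ID1, an inhibitor of basic helix-loop-helix factors that holds back differentiation, had high H3K14cr centred on a short gene of 1222 bp. Within 1 kb of the start (chr20:30193086) the DPF2 libraries had 6.81 and 6.53 CPM and the H3K14cr libraries 10.3 and 8.92 CPM. No library of an antibody reached the range of the other. In the tile chr20:30193001-30194000, enriched for H3K14cr, the fold over the surrounding 20 kb was 4.25 and 3.18 in the H3K14cr libraries and 2.51 and 2.46 in the DPF2 libraries. The run of raised tiles was 10 tiles for H3K14cr, ending 7414 bp downstream, and 6 tiles for DPF2, ending 3414 bp downstream. Counted with breaks in the run, 13 of the 20 tiles passed for H3K14cr and 10 for DPF2. In the tile centred 2414 bp downstream the DPF2 libraries had 3.47 and 3.08 CPM, above the H3K14cr libraries at 2.02 and 2.59 CPM, with a ratio of 1.36 (0.955 to 1.93) whose interval included 1. The 5 kb downstream held 1.66 times the upstream H3K14cr reads (1.40 to 1.96) and 1.54 times the DPF2 reads (1.24 to 1.91).

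**Figure D2:**
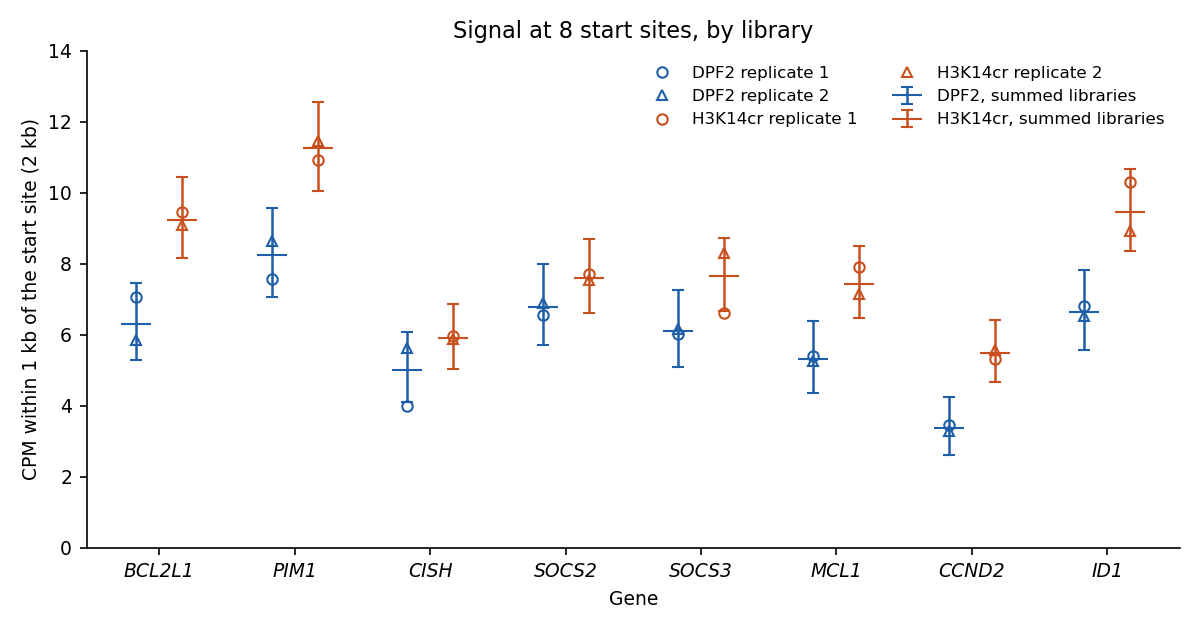
CPM within 1 kb of each start site (vertical axis, from 0) for the 8 genes, with a circle for replicate 1 and a triangle for replicate 2; the horizontal bar is the summed libraries and the whisker its 95% Poisson interval. With this scaling by library totals both H3K14cr libraries lie above both DPF2 libraries at each gene (at 4 genes with median-of-ratios factors), and PIM1 is highest and CCND2 lowest for both antibodies.

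Set in order of the summed DPF2 level within 1 kb, the genes ran from PIM1 at 8.24 CPM through SOCS2 at 6.78, ID1 at 6.63, BCL2L1 at 6.30, SOCS3 at 6.11, MCL1 at 5.31 and CISH at 5.02 to CCND2 at 3.36 CPM. Only CISH and CCND2 differed as neighbours in that order, by 1.49-fold (1.10 to 2.05). For H3K14cr the order was PIM1 at 11.3 CPM, ID1 at 9.45, BCL2L1 at 9.24, SOCS3 at 7.65, SOCS2 at 7.61, MCL1 at 7.43, CISH at 5.91 and CCND2 at 5.49 CPM. There PIM1 exceeded ID1, BCL2L1 exceeded SOCS3 and MCL1 exceeded CISH beyond their intervals, and the other neighbours did not. SOCS2 moved furthest between the orders, at rank 2 for DPF2 and rank 5 for H3K14cr. The intervals of the SOCS2, SOCS3 and MCL1 levels overlap in both.

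The fold of the start tile over the mean of its own 20 kb gave another order, because a wide signal raises that mean. For DPF2 it ran from 1.54 at CCND2 to 2.81 at SOCS3, with a median of 2.31. Without DPF2 replicate 2 CISH dropped from 1.92 to 1.07 and was lowest, below CCND2 at 1.70. For H3K14cr it ran from 1.44 at PIM1 to 3.08 at ID1, with a median of 2.36. PIM1, the gene with the highest H3K14cr level, was thus lowest by this fold, as its tallest H3K14cr tile lies next to the one with the start. Centred on the highest tile instead, PIM1 had 2.82 for H3K14cr and MCL1 the highest value, 4.27.

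**Figure D3:**
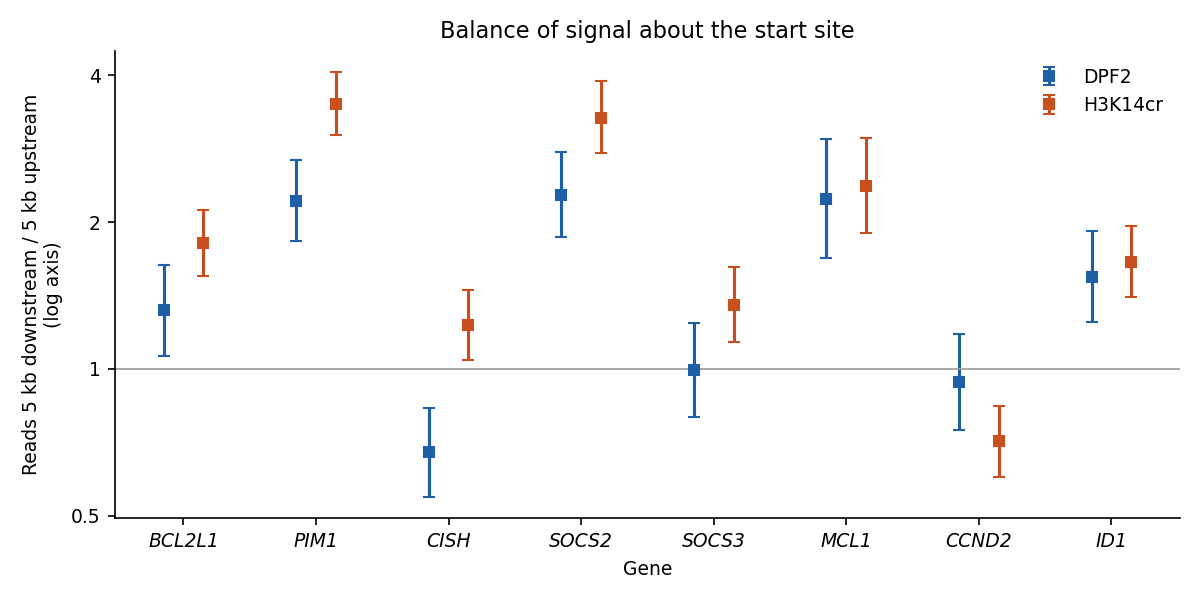
Reads in the 5 kb downstream over reads in the 5 kb upstream of each start site (log axis) for DPF2 and H3K14cr, summed libraries with 95% exact binomial intervals, and a line at 1. H3K14cr lies above 1 at 7 genes and below it at CCND2, and DPF2 lies below 1 beyond its interval at CISH.

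Signal lay mostly downstream of the start. H3K14cr had more reads in the 5 kb downstream than upstream beyond the interval at 7 genes and fewer at CCND2. DPF2 had more at 5 genes (SOCS2, MCL1, PIM1, ID1 and BCL2L1) and fewer at CISH. The balance was not computed at other start sites, so whether these counts are unusual was not tested. The downstream side held the gene body in each case, and at CISH the upstream side held MAPKAPK3. BCL2L1, SOCS2, SOCS3, MCL1, CCND2 and ID1 also have an antisense or non-coding gene within 10 kb of their outermost start in the GRCh38.p14 table, such as SOCS2-AS1 and CCND2-AS1, and PIM1 has none. ChIP reads carry no strand of transcription, so those cannot be told apart from the member.

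The second comparison asked how DPF2 stood relative to H3K14cr at these genes. With library totals, both H3K14cr libraries exceeded both DPF2 libraries within 1 kb of the start at 8 of 8 genes, and the ratio interval lay below 1 at 6 of 8 (not at CISH and SOCS2). Such an order was usual at this level: of all 2 kb windows with a mean of at least 50 reads, 63.4% had both H3K14cr libraries above both DPF2 libraries (7.12% the reverse), and 44.7% had an interval below 1 (3.35% above). The ratios at the 8 genes ran from 0.613 at CCND2 to 0.890 at SOCS2. These calls depended on the scaling. With median-of-ratios factors all 8 intervals included 1, and CISH (1.10), SOCS2 (1.16) and SOCS3 (1.04) turned above 1. Both H3K14cr libraries then exceeded both DPF2 libraries at BCL2L1, MCL1, CCND2 and ID1, and SOCS2 had the reverse order. Of the same 2 kb windows 22.8% then had H3K14cr on top and 32.8% DPF2, with 9.37% of intervals below 1 and 17.2% above. In the single tile that holds the start the ratio was below 1 beyond its interval at CCND2 (0.576), BCL2L1 (0.595) and ID1 (0.610) with library totals, and it was 0.898 at MCL1, 0.973 at SOCS2, 1.04 at SOCS3, 1.06 at CISH and 1.10 at PIM1, with intervals that included 1. With median-of-ratios factors the CCND2, BCL2L1 and ID1 intervals included 1 (0.747, 0.772 and 0.792), and PIM1 was above 1 at 1.42 (1.06 to 1.89). That PIM1 tile is centred at -422 bp, so most of it lies upstream of the start. In a 1 kb tile centred on the start the PIM1 ratio was 0.782 (0.596 to 1.02) with library totals. Within 1 kb of the start the PIM1 interval included 1 with median-of-ratios factors, as given above. The median ratio of the 8 tiles that hold a start was 0.936, and 1.21 with median-of-ratios factors, so its side of 1 depends on the scaling. The CISH ratio rested on the DPF2 library used: it was 0.605 without DPF2 replicate 2 and 1.33 without DPF2 replicate 1. The median ratio was 0.903 over all tiles averaging 10 or more reads per library and 0.763 over tiles enriched for either antibody.

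Summed over the 8 genes, the ratio was lower near the start and just downstream than further out. It was 0.849 (0.764 to 0.944) from 10 to 5 kb upstream, 0.877 (0.797 to 0.964) from 5 to 1 kb upstream and 0.746 (0.690 to 0.806) within 1 kb. From 1 to 5 kb downstream it was 0.722 (0.673 to 0.773), and from 5 to 10 kb downstream 0.931 (0.860 to 1.01). The interval of the 1 to 5 kb downstream class did not overlap those of the 5 to 1 kb upstream and 5 to 10 kb downstream classes, and overlapped the 10 to 5 kb upstream class slightly. That of the class within 1 kb overlapped both upstream classes and lay below the 5 to 10 kb downstream class. Another scaling multiplies all 5 classes alike and leaves their order as it is. In each of the 4 pairings of single libraries the ratio from 1 to 5 kb downstream was also below that from 5 to 10 kb downstream. PIM1 gave 275 DPF2 and 596 H3K14cr reads to the 1 to 5 kb downstream class, at a ratio of 0.618 (0.533 to 0.714). The order did not hold at every gene. CCND2 alone had a higher ratio from 1 to 5 kb downstream (0.991) than from 5 to 1 kb upstream (0.664). CISH alone had a higher ratio within 1 kb (0.850) than from 10 to 5 kb upstream (0.750). The pooled intervals leave out the spread between genes, and these classes were not computed at other genes.

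**Figure D4:**
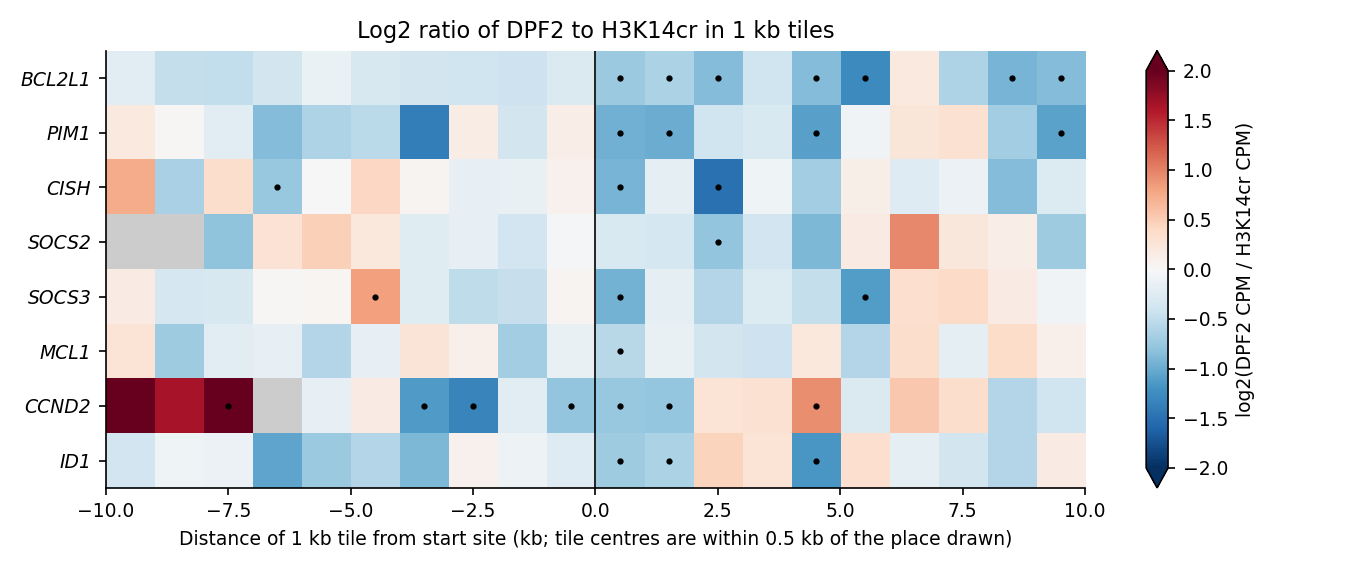
Log2 ratio of DPF2 to H3K14cr CPM (colour; red, DPF2 higher; blue, H3K14cr higher) in the 20 tiles of each gene against distance from the start site in kb, positive in the direction of transcription. Dots mark tiles whose 95% interval excludes 1 and grey marks 0 DPF2 reads; with library totals 26 of the dotted tiles are lower in DPF2 and 3 higher, those at SOCS3 and CCND2.

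Tile by tile, 117 of the 160 averaged 10 or more reads per library. Of these, 26 had a ratio interval below 1 with library totals, against 8.52% of all such tiles in the genome, and 2 had one above 1, against 1.97%. With median-of-ratios factors 9 were below 1 (background 1.60%) and 13 above (background 10.4%). The 13 included the PIM1, SOCS3 and ID1 tiles described above with DPF2 on top, whose intervals included 1 with library totals. The backgrounds were not matched for reads, and intervals narrow as reads rise. Of the 2 kb windows averaging 50 or more reads, 44.7% had an interval below 1 with library totals. Whether the member counts are unusual for their depth was not tested. All 7 of the BCL2L1 tiles below 1 lay downstream of the start or on it. At CCND2 the tiles below 1 stood on both sides of the start, and a tile centred 4598 bp downstream was among the 2 above 1, at 1.90 (1.02 to 3.62). The other was the SOCS3 tile centred at -4342 bp, at 1.77 (1.02 to 3.10).

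A test across the genome asked which enriched tiles differed between antibodies, with limma on log2(CPM + 0.5). It covered 12488 tiles that were enriched for either antibody and averaged 10 or more reads per library, among them 6 member tiles. Of those 6, 3 were higher in H3K14cr at the Benjamini-Hochberg threshold of 0.05, where 31.0% of all tiles tested were, and 0 were higher in DPF2, where 4.24% were. The PIM1 and ID1 tiles and 2 SOCS2 tiles entered this test through H3K14cr enrichment alone, which selects for the direction called. The SOCS2 start tile entered through DPF2 enrichment alone, which selects for the other direction, and only the MCL1 tile through both. The count and the SOCS2 differences are thus a description. Over all tiles averaging 10 or more reads, a set chosen without the calls, the PIM1 tile passed (limma adjusted p = 2.41e-04) and the ID1 and MCL1 tiles did not (limma adjusted p = 0.0595 and 0.276). In the PIM1 tile chr6:37138001-37139000 the DPF2 libraries had 3.85 and 3.98 CPM and the H3K14cr libraries 7.996 and 7.43 CPM. The log2 difference there was -0.89 (SE 0.17, limma adjusted p = 2.47e-05). At the ID1 tile chr20:30193001-30194000, with 3.34 and 3.08 against 5.88 and 4.78 CPM, it was -0.65 (SE 0.18, limma adjusted p = 0.0037). At the MCL1 tile chr1:150551001-150552000, with 3.60 and 3.004 against 4.60 and 4.84 CPM, it was -0.46 (SE 0.18, limma adjusted p = 0.0387). In all 3 tiles both H3K14cr libraries stood above both DPF2 libraries.

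The 3 SOCS2 tiles had differences of -0.04, -0.30 and -0.26 from the start downstream, with limma adjusted p of 0.889, 0.173 and 0.234, and did not pass. Scaling mattered to these calls. With library totals the median log2 difference of the 12488 tiles was -0.33, and with median-of-ratios factors it was -0.02. Under the latter PIM1 still passed at -0.55 (limma adjusted p = 0.0159), while ID1 at -0.31 (adjusted p = 0.244) and MCL1 at -0.13 (adjusted p = 0.688) did not. Over all tiles averaging 10 or more reads, the set chosen without the calls, the PIM1 tile did not pass with these factors (limma adjusted p = 0.0747). On that scale only the PIM1 tile of the 6 passed as lower in DPF2, where 5.34% of the 12488 did and 9.02% passed as higher, and the SOCS2 tiles were at 0.30, 0.04 and 0.08. Leaving out H3K14cr replicate 1 ended the calls at ID1 (adjusted p = 0.157) and MCL1 (adjusted p = 0.168), and MCL1 was also lost without H3K14cr replicate 2 (adjusted p = 0.22) or DPF2 replicate 2 (adjusted p = 0.131).

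Because the enrichment call leaves out broad signal, the test was also run over all 255612 tiles that averaged 10 or more reads, a choice made after seeing the data. Of the 117 member tiles among them, limma called 10 higher in H3K14cr (background 1.19%) and 0 higher in DPF2 (background 0.202%). The 10 comprised 3 tiles at PIM1, 2 at BCL2L1, 2 at CCND2 and 1 each at CISH, SOCS2 and SOCS3. The quasi-likelihood test of edgeR, run on recovered reads, called 12 higher in H3K14cr (background 1.34%) and 0 higher in DPF2 (background 0.226%). These backgrounds were not matched for reads either, so whether the counts are unusual for their depth was not tested. With median-of-ratios factors limma called 0 of the 117 in either direction. Over all tiles the balance then turned, to 0.124% higher in H3K14cr and 0.853% higher in DPF2.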

How the data were processed

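The authors deposited 1 signal file per library, in 100 bp bins; the submitters' processing notes name Bowtie2 and the builds hg19 and mm9, and the positions were read as hg19. How duplicates and multiply mapped reads were handled, and what made the bins, is not stated in the labels. The deposited signal was scaled to 10000000 reads, and division by the value of 1 read gave whole reads for 100% of values in every library (tolerance 0.0075 signal units). Reads were summed by bin midpoint into 1 kb tiles on 24 chromosomes, with CPM over library totals. The depths, given in the report, limit the precision of tiles with few reads.

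The design had planned for signal without reads; since reads were recovered, the Poisson test of enrichment was used. Tiles enriched for either antibody were tested between antibodies with limma (trend), on a scale of log2(CPM + 0.5) that understates changes of low tiles; edgeR was an alternative. Ratios are of summed reads scaled by totals. Scripts were tested on simulated data. The tests between antibodies ran in R 4.3.3 (limma 3.58.1, edgeR 4.0.16), and all else in Python 3.11.15 with scipy 1.17.1, numpy 2.4.6 and pandas 2.3.3; figures used matplotlib 3.10.9.

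The 8 genes, the motifs and the rules were chosen with earlier results of these data known. All 8 genes are described; their tiles are named where they hold a start, are enriched for an antibody or passed the test, and other tiles were named after their values were seen. Tile size, fold, background, scaling, pseudocount, read filter, replicate block and left-out libraries were varied. Gene neighbours and lengths come from the GRCh38.p14 gene table, and no coordinate was converted between builds. Other genes of the pathway were not analysed here, as no hg19 annotation was used.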

Additional observations from a re-analysis of the deposited data

How the results depend on the processing

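The count of enriched tiles depended on the calling rule, and the cause was not tested beyond what each rule changes by construction. Percentages here are shares of all covered tiles. For DPF2 the 2 enriched tiles became 1 with 500 bp tiles (0.0718%), 1 with 2 kb tiles (0.293%) and 0 with a fold of at least 5 (0.0532%). They became 5 with summed libraries (0.565%) and 1 with the tile itself in its local mean (0.159%). For H3K14cr the 5 became 3 with 2 kb tiles (0.474%), 0 with a fold of at least 5 (0.101%) and 1 with the tile itself included (0.341%). Against the chromosome mean alone the counts were 44 and 63 (1.11% and 2.12%). Leaving out 1 library asks for 1 call instead of 2. Without replicate 1 the counts were 6 for DPF2 (0.496%) and 6 for H3K14cr (0.672%). Without replicate 2 they were 4 (0.317%) and 9 (0.573%). The median fold of the start tile was 2.74 for DPF2 and 2.55 for H3K14cr with tiles centred on the start, 2.97 and 3.12 over the 20 kb without 2 kb on each side, 7.61 and 9.28 over the chromosome mean, and 2.34 to 2.39 and 2.25 to 2.40 with a library left out. The median ratio of 0.936 was 1.21 with median-of-ratios factors, 1.08 as a ratio of folds, 0.774 with tiles centred on the start and 0.809 to 0.979 with a library left out. Tiles higher in H3K14cr, 3 in the fit described, numbered 1 with median-of-ratios factors, 1 with quantile normalization and 1 to 4 with a library left out (the lone library assumed to vary like the others). Chosen after seeing the data, all tiles averaging 10 or more reads gave 10 with limma, 12 with edgeR and 0 with median-of-ratios factors, which moved the median of all those tiles from -0.11 to 0.15. The replicate block gave 3, the number without it; same-numbered libraries share only a number, and their deviations correlated at -0.017. The SOCS2 differences, none of which passed, changed sign in some settings: the tile from 93963001 was at 0.30 with median-of-ratios factors, 0.27 with quantile normalization, 0.015 without DPF2 replicate 2 and 0.029 without H3K14cr replicate 1 (-0.0993 without H3K14cr replicate 2); the tile from 93964001 was at 0.0441 with median-of-ratios factors; and the tile from 93965001 was at 0.0785 with median-of-ratios factors and 0.0068 with quantile normalization.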
